A study of Mus musculus with 6 samples.

Results

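The response of Setd2-knockout (KO) macrophages to 12 h of lipopolysaccharide (LPS) is the subject here, read as the difference between the KO library taken at 12 h and the KO library taken at 0 h. Genes were included if they reached 1 FPKM (a read density corrected for transcript length and for the size of the library) in either library, which 11200 of the 17904 genes in the table did. Each difference is on the scale of log2(FPKM + 1), so that 1 stands for a 2-fold change at high levels and less than the true fold is shown for weakly expressed genes. A gene was called higher or lower when the difference was at least 1 in size, and "rose" and "fell" are used only for called genes. There was 1 library a side, so no value has a replicate error, no difference has a replicate check and no test was possible.

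The study measured RNA in bone marrow-derived macrophages of C57BL/6 mice aged 8 weeks. Marrow cells were grown for 5 days with M-CSF, the growth factor that turns monocyte precursors into macrophages. The 6 libraries were wild type (WT) and KO at 0, 12 and 24 h with LPS at 100 ng/ml, and RNA extracted with TRIzol was sequenced on a BGISEQ-500. The 2 libraries compared are KO 0 h and KO 12 h, and WT 0 h, WT 12 h and KO 24 h are used beside them. The labels do not describe the Setd2 allele or what deleted it, and they leave unsaid whether an animal or a culture gave more than 1 library.

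LPS, the outer membrane glycolipid of Gram-negative bacteria, is handed by Cd14 to the receptor pair Tlr4 and Ly96 on the macrophage surface. From there the adaptor Myd88 leads to NF-kB and a wave of cytokine and chemokine genes, and the adaptor Ticam1 leads to interferon beta, which acts back on the cell and switches on antiviral genes. Macrophages that respond in this way also stop dividing, change how they handle lipids and sugar, and make proteins that hold the response in check. Setd2 places the trimethyl mark on lysine 36 of histone H3 over the bodies of transcribed genes.

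Setd2 itself (gene ID 235626; GRCm38 chr9:110532500-110618633) stood at 9.96 FPKM in KO 0 h, 9.16 in KO 12 h and 5.11 in KO 24 h, against 7.83, 8.68 and 7.51 in WT. The values of the libraries labelled KO and WT overlap. A level summed over the gene cannot show whether some exons are missing, so it does not check the labels. Estimated depth was 21700000 to 22500000 mapped reads a library, if reads were 50 nt long. At that depth 1 FPKM on a transcript of 2000 nt is about 42.6 reads in KO 0 h. All 10 macrophage markers were above 1 FPKM in both KO libraries, with a summed level of 2804 FPKM at 0 h and 3757 at 12 h. Of these, Lyz2 stood at 17.7 and 35.96 FPKM in KO and at 5502 and 3903 in WT at the same times. The near-identical Lyz1 was also lower in KO, at 10.99 FPKM against 569 in WT at 0 h and 10.35 against 321 at 12 h. How reads were split between the 2 copies is uncertain, but both are low. The labels do not say what deleted Setd2, and whether the lysozyme locus itself is altered in the KO cells was not tested. Neutrophil markers summed to 57.3 FPKM at 0 h and 44.1 at 12 h, endothelial markers to 20.1 and 29.7, fibroblast markers to 12.3 and 11.7, and those of each of the 6 other cell types to 7.17 or less. The NK cell markers Klra8, Gzma and Prf1 were listed at 0 in both libraries.

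After 12 h with LPS, 997 of the 11200 genes were called higher (8.9%) and 2020 lower (18%). The genes that rose moved further: 173 were higher by 3 or more, which is 8-fold on this scale, and 59 were lower by as much. None was lower by 5 or more, while 41 were higher by that size. The median over all measured genes was -0.38, and 70.9% lay below 0. That centre depends on how the libraries are scaled. With median-of-ratios scaling the differences shift by 0.40, the median becomes -0.03, and 1389 genes are called higher and 1121 lower, so that 55.3% of calls are higher in place of 33.0%. A list with a median near -0.38 is therefore near the centre of all genes.

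**Figure D1:**
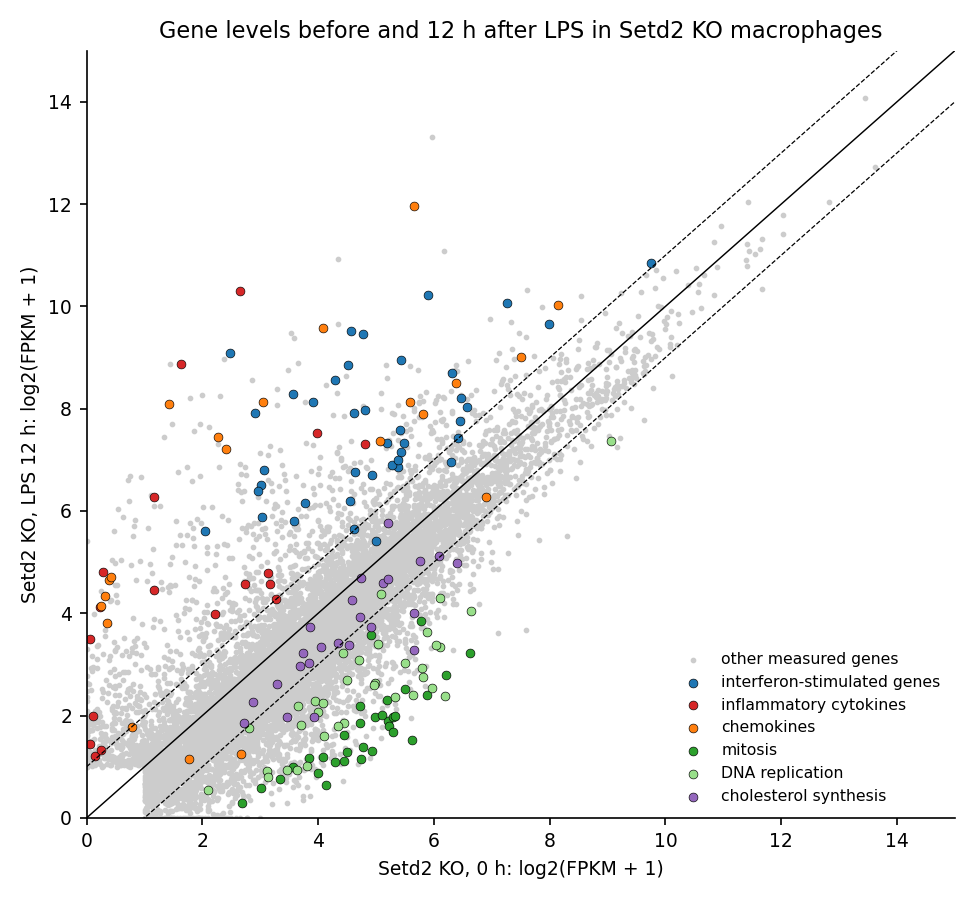
Level of each measured gene in the KO 0 h library (x axis) and the KO 12 h library (y axis), both as log2(FPKM + 1), with 1 point a gene and colours for 6 gene lists. The solid line marks equal levels and the dashed lines a difference of 1. All 18 measured cytokine genes, some of them measured only through KO 12 h, lie above the upper line. So do 18 of 21 chemokine genes and 38 of 40 interferon-stimulated genes. All 32 mitosis genes and 34 of 35 DNA replication genes lie below the lower line. The furthest point above is Il1b (5.29 to 1259 FPKM).

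Among genes that reached 5 FPKM, the highest difference was that of Il1b, the gene of the fever-inducing cytokine interleukin 1 beta, at 5.29 FPKM before LPS and 1259 after (7.65). Nos2, the inducible nitric oxide synthase, followed at 1.71 and 467 FPKM (7.43). Saa3, an acute phase protein of macrophages, went from 61.4 to 10221 FPKM (7.36), and Il1a, the gene of interleukin 1 alpha, from 2.09 to 467 (7.24). These 4 genes were over 100-fold higher as plain FPKM ratios, from 167 for Saa3 to 273 for Nos2. The other 11 of the highest 15 were Cxcl3 (6.67), Ifi205 (6.62), the complement factor Cfb (6.59), Acod1 (6.58), Socs3 (6.43), Ccl5 (6.32), the prostaglandin E synthase Ptges (6.26), the receptor Tarm1 (6.24), Ifit1bl1 (6.10), the collagenase Mmp13 (5.97) and the formyl peptide receptor Fpr1 (5.94). Fpr1 started from 0.68 FPKM, which is about 19 reads, so its size is the least certain of these.

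At the other end, most of the 15 lowest genes act in the cell division cycle. Ccna2, the cyclin of S and G2 phase, was lowest, at 48.3 FPKM before LPS and 1.88 after (-4.10). Rrm2, a subunit of the enzyme that makes deoxynucleotides, went from 71.7 to 4.23 FPKM (-3.80). Hist1h2ap (-3.93) belongs to a family of near-identical histone genes, so its reads may be shared with others. Gcnt1, a Golgi enzyme that branches O-linked sugar chains, fell from 28.7 to 1.25 FPKM (-3.72), and Ccnd1, the cyclin that answers growth factors, from 137 to 11.3 (-3.49).

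The receptors and adaptors that sense LPS and related ligands responded unequally: of 24 measured, 10 rose and 2 fell, and the median was 0.79. Cd14 rose from 161 to 825 FPKM (2.35). Tlr4 stood at 15.6 and 11.4 FPKM (-0.42) and its partner Ly96 at 8.95 and 16.4 (0.81), neither of them called. Receptors for other ligands rose, among them Tlr1 (2.53), the RNA sensor Tlr3 (2.12), Tlr2 (2.08) and Tlr6 (1.24). Of the adaptors, Myd88 went from 41.8 to 100.5 FPKM (1.25), while Ticam1 stood at 14.2 and 29.3 FPKM (0.99), just short of a call. The largest difference in the list was that of Irak3, a kinase relative that blocks signalling from these receptors, from 8.81 to 67.2 FPKM (2.80). Irak1 (-1.0) and the ribosomal RNA sensor Tlr13 (-1.27) fell, and neither is called with the scaled libraries (-0.61 and -0.87).

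Genes of the NF-kB family and of the IkB proteins that inhibit it rose together. Of 11 genes, 8 rose and 0 fell, with a median of 2.35. Nfkbia, the inhibitor that holds NF-kB in the cytoplasm, went from 57.4 to 321 FPKM (2.46), and Nfkbie from 6.41 to 53.4 (2.88). Nfkb2, the precursor of a subunit of the slower non-canonical branch, went from 19.7 to 152.0 FPKM (2.89) and its partner Relb from 9.77 to 54.0 (2.35). Rela, the main activating subunit, stood at 42.6 and 68.1 FPKM (0.66).

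Of 21 listed inflammatory cytokine genes 18 were measured, and all 18 rose, with a median of 2.19. Chemokines rose in 18 of 21 measured cases, with a median of 3.46. Over all genes 8.9% were called higher. In both lists some genes reached 1 FPKM only in KO 12 h, and these could not have been called lower. The list medians depend on the pseudocount: they are 3.66 and 5.08 with a pseudocount of 0.1, and 1.49 and 2.18 with 5. Il12b, a subunit of interleukins 12 and 23, went from 1.25 to 76.3 FPKM (5.10). Il6, the inducer of the acute phase response, went from 0.21 to 27.1 FPKM (4.54), and Tnf from 14.7 to 184 (3.56). Edn1, which encodes a vasoconstrictor peptide, went from 0.18 to 16.46 FPKM (3.89). Several cytokine genes passed the rule at low levels. Ifnb1, the gene of interferon beta, stood at 0.19 and 1.52 FPKM (1.08), and Il33 at 0.04 and 1.71 (1.38), and neither is called with a pseudocount of 5 (0.33 and 0.41).

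The chemokines that attract neutrophils had some of the largest differences. Cxcl3 went from 1.69 to 273 FPKM (6.67), Cxcl2 from 3.80 to 173 (5.18) and Cxcl1 from 0.30 to 24.0 (4.27). Ccl5, which draws T cells and monocytes, was the most abundant chemokine at 12 h, with 49.2 FPKM at 0 h and 4010 at 12 h (6.32). The ligands of the T cell receptor Cxcr3 rose together: Cxcl10 from 15.98 to 760.3 FPKM (5.49), Cxcl11 from 0.34 to 25.2 (4.29) and Cxcl9 from 0.25 to 19.3 (4.02). The monocyte attractants Ccl2 and Ccl7 were already abundant at 0 h, and rose from 282 to 1041 FPKM (1.88) and from 82.5 to 360.3 (2.11). Cxcl14 fell from 5.34 to 1.36 FPKM (-1.43), and Ccl6 (-0.64) and Cx3cl1 (-0.63) were not called.

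Interferon-stimulated genes rose in 38 of 40 cases and none fell, with a median of 2.31, and all 16 interferon-induced GTPase genes rose, with a median of 3.55. Both lists were called far above the 8.9% of all genes. Rsad2, whose product viperin makes a chain-terminating nucleotide, went from 22.7 to 730.0 FPKM (4.95). Isg15, a ubiquitin-like protein, went from 58.6 to 1200 FPKM (4.33), Mx1, a GTPase that traps viral nucleocapsids, from 10.8 to 310.2 (4.72), and Oasl1 from 26.2 to 699.8 (4.69). Irf7, the transcription factor that amplifies interferon production, went from 153 to 1073 FPKM (2.80). The factors that carry the interferon signal moved less, with Stat2 at 41.4 and 190.0 FPKM (2.17) and Irf9 at 31.1 and 41.6 (0.41), the last not called. Ifi205 and Ifi204, Ifit3 and Ifit3b, Oas1a and Oas1g, and Tgtp1 and Tgtp2 are close copies of each other, so the split of reads within each pair is uncertain.

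Guanylate-binding proteins, GTPases that coat vacuoles and bacteria, led the second list. Gbp2 went from 10.9 to 668 FPKM (5.81), Gbp5 from 2.88 to 208 (5.75), Gbp6 from 2.34 to 116 (5.13) and Gbp3 from 8.83 to 269.8 (4.78). The related Irgm1, which regulates the other members of its family, went from 49.5 to 214 FPKM (2.09). Of the interferon regulatory factors outside the list, Irf1 rose from 21.9 to 109.6 FPKM (2.27), while Irf3 (-0.51), Irf5 (0.40) and Irf8 (-0.50) were not called.

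The promoters of these genes are shown because members of each list moved together and a short motif recurred in them. The bases are the stretch just before the transcription start, from RefSeq promoters of GRCm38.p6, read 5′ to 3′ on the strand of the gene. In Rsad2 (chr12:26456453-26456572, minus strand) and Gbp2 (chr3:142620543-142620662, plus strand), capitals mark AAANNGAAA on either strand, the repeated core of the interferon-stimulated response element. In Cxcl2 (chr5:90903779-90903898, plus strand), capitals mark GGGNNTTTC on either strand, the core of an NF-kB site.
Rsad2: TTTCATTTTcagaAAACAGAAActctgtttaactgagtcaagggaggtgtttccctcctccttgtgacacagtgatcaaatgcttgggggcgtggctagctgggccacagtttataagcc
Gbp2: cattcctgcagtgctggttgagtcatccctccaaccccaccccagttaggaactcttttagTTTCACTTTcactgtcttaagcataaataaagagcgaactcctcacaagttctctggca
Cxcl2: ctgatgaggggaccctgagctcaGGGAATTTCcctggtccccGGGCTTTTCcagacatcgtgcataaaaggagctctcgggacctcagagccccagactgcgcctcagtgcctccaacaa
The interferon motif was in the window, 250 bases before to 50 after the start, of 20 of the 28 interferon-stimulated genes with a RefSeq window and of 10 of 10 GTPase genes. It was in 10.03% of the 8912 measured genes with a window and in 12.1% of all 27025 genes of the RefSeq promoter table. Among genes called higher it was in 22.5%, and among those higher by 3 or more in 36.2%. The NF-kB motif was in 5 of 14 chemokine and 4 of 8 NF-kB family genes, against 5.24% of measured genes. Both motifs overlapped in 12 of 11307 windows. A match describes these letters and shows no binding.

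**Figure D2:**
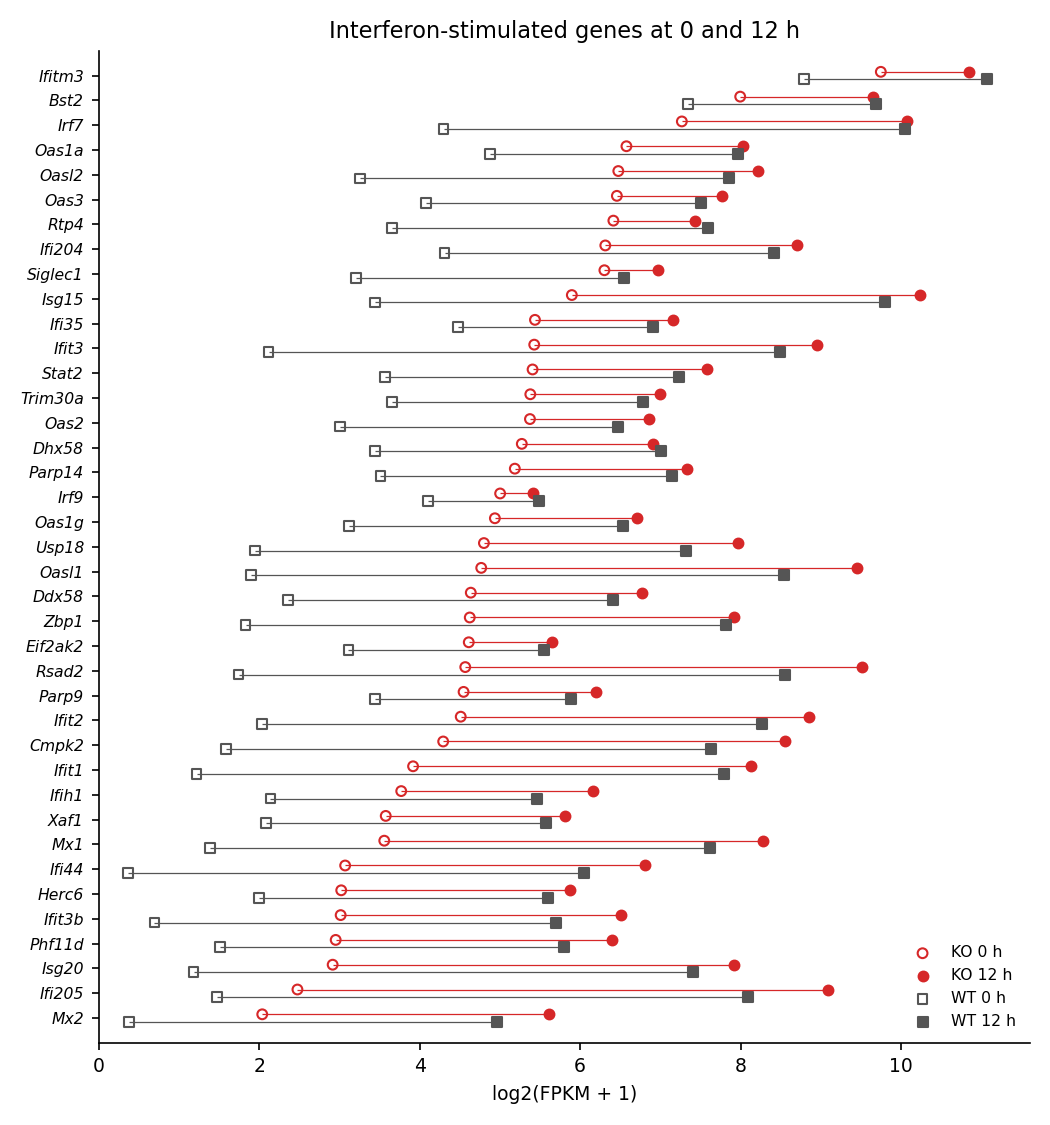
Levels of 39 of the 40 interferon-stimulated genes as log2(FPKM + 1) on the x axis, 1 gene a row, with open symbols at 0 h and filled symbols at 12 h, red circles for KO and grey squares for WT, 1 library a symbol. The open red circle lies to the right of the open square in all 39 rows. Of the 40 genes, 39 had the smaller response in KO, and 35 were still higher in KO at 12 h. Ifi205 is a row with filled symbols apart, at 545 FPKM in KO and 271 in WT.

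Genes that restrain inflammation rose as well: 19 of 26 feedback inhibitors rose and 4 fell (median 2.01). Socs3, which blocks the interleukin 6 receptor, went from 2.46 to 296 FPKM (6.43), and Socs1, which blocks interferon receptors, from 5.60 to 83.2 (3.67). Il1rn, the natural antagonist of interleukin 1, reached 2158 FPKM from 71.5 (4.90) and so stood above Il1b itself at 12 h. Tnfaip3, whose product A20 edits ubiquitin chains, went from 9.69 to 105 FPKM (3.31), and Zfp36, which destroys cytokine mRNAs, from 40.5 to 267 (2.69). Il10 went from 0.81 to 8.35 FPKM (2.37). The 4 that fell were the quiescence factors Klf2 (-1.84) and Klf4 (-1.47), the glucocorticoid target Tsc22d3 (-1.24) and the ERK phosphatase Dusp6 (-1.17), of which the last 2 are not called with the scaled libraries.

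Of 21 microbicidal genes, 14 rose and 0 fell, with a median of 2.49. Lcn2, which takes iron from bacteria, went from 6.21 to 379 FPKM (5.72), and Hp, the hemoglobin scavenger, from 1.23 to 67.1 (4.93). Arginine is the substrate of Nos2, and the arginine transporter gene Slc7a2 went from 2 to 107 FPKM (5.17) and Ass1, which rebuilds arginine from citrulline, from 32.9 to 316 (3.23). Arg1, which consumes arginine without making nitric oxide, rose as well, from 0.32 to 7.97 FPKM (2.76). Acod1, which makes the antibacterial metabolite itaconate, went from 19.3 to 1941 FPKM (6.58). Of the phagocyte oxidase, the catalytic subunit gene Cybb rose (163 to 576 FPKM, 1.82), while Cyba (-0.23) and Ncf1 (0.10) were not called. In the inflammasome list 6 of 14 rose and 0 fell, led by Casp4, the sensor of LPS in the cytosol, at 8.14 and 93.1 FPKM (3.36), with Nlrp3 at 15.3 and 68.3 (2.09).

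Of 18 eicosanoid genes, which make and break prostaglandins and leukotrienes, 2 rose and 9 fell, with a median of -0.90. The share that rose (11.1%) was near the 8.9% of all genes, while more fell than the 18% of all genes. With median-of-ratios scaling 3 are called higher and 8 lower (median -0.50, against -0.03 for all genes). The 2 that rose form the inducible route to prostaglandin E2, with Ptgs2 at 0.67 and 72.2 FPKM (5.45) and Ptges at 2.99 and 305 (6.26). The constitutive cyclooxygenase gene Ptgs1 fell from 8.33 to 1.99 FPKM (-1.64). The leukotriene genes Alox5 (-2.12), Ltc4s (-1.55), Lta4h (-1.48) and Alox5ap (-1.45) fell, and so did Hpgd, which inactivates prostaglandins, from 8.99 to 0.47 FPKM (-2.76).

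Antigen presentation by class I molecules rose in 13 of 16 genes, with a median of 1.88. The peptide transporter gene Tap1 went from 49.5 to 258 FPKM (2.36) and the immunoproteasome gene Psmb10 from 52.9 to 279 (2.38). H2-Q7, H2-Q6 and H2-T22 were called as well, but class I genes share much of their sequence and their reads may be misassigned. Among 13 genes of class II presentation and costimulation 5 rose, led by Cd40, which receives help from T cells, at 3.35 and 199.9 FPKM (5.53).

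Genes typical of tissue macrophages and of clearing dead cells were called lower more often than higher as deposited. The same held for all genes, with 8.9% higher and 18% lower. Of 24 resident macrophage genes 1 rose and 9 fell (median -0.64), and of 20 efferocytosis and complement genes 3 rose and 6 fell (median -0.73). Gas6, which bridges dying cells to their receptors, went from 136 to 28.2 FPKM (-2.23), Cx3cr1, the fractalkine receptor, from 35.8 to 5.18 (-2.58) and the mannose receptor gene Mrc1 from 39.8 to 11.4 (-1.71). With median-of-ratios scaling 4 of the 24 are called higher and 4 lower (median -0.24), and of the 20 there are 5 higher and 2 lower (median -0.33). Scaling moves all genes, whose median is then -0.03, so both list medians stay below that centre. Cfb (4.19 to 499.8 FPKM) and C3 (12.9 to 159, 3.53) of the alternative complement route rose, while C1qa, C1qb and C1qc of the classical route were not called (-0.77, -0.41 and -0.70). In RNA from whole cultures, fewer cells of a kind and less RNA per cell cannot be told apart.

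Almost all genes of mitosis and DNA replication fell. All 32 measured mitosis genes fell, with a median of -3.17, and 34 of 35 DNA replication genes fell, with a median of -2.35, against 18% of all genes. With median-of-ratios scaling 31 of the 32 and 32 of the 35 are called lower. Plk1, the kinase that drives entry into mitosis, went from 38.1 to 2.18 FPKM (-3.62), and Cdc20, the activator of the anaphase-promoting complex, from 29.6 to 1.48 (-3.63). Top2a, which untangles chromosomes, went from 73.2 to 5.93 FPKM (-3.42). The replicative helicase was lower in each of its 6 subunit genes, from Mcm4 (30.6 to 5.26 FPKM, -2.34) to Mcm7 (61.8 to 4.81, -3.43). E2f1, the transcription factor of this program, was the 1 replication gene not called, at 33.1 and 19.7 FPKM (-0.72). Myc fell from 17.9 to 1.36 FPKM (-3.0) and Mxd1, its antagonist, rose from 2.93 to 53.7 (3.80). Genes that brake the cell cycle or start it were mixed: of 10 measured, 2 rose, 3 fell and 5 were not called (median -0.15). Cdkn2c fell from 33.1 to 1.97 FPKM (-3.52), and the cyclin gene Ccnd2 rose (2.30) while Ccnd1 fell (-3.49).

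Promoters of mitosis and DNA replication genes are shown for the same reason, with the same source and reading direction. In Cdc20 (chr4:118437344-118437483, minus strand), capitals mark TTTGAA on either strand, the cell cycle homology region (CHR) bound by a repressor complex of resting cells, and CCAAT on either strand. In Mcm5 (chr8:75109340-75109508, plus strand), capitals mark TTTNNCGC on either strand, an E2F site, with a pair of overlapping matches.
Cdc20: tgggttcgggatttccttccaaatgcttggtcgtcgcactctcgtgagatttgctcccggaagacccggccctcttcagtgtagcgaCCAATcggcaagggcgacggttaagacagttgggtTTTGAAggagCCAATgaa
Mcm5: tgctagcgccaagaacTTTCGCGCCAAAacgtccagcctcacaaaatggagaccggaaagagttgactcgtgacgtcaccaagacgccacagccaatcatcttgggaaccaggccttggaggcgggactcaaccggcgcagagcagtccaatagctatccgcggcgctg
The CHR motif was in the window of 21 of 27 mitosis genes (77.8%), against 14.6% of measured genes and 3 of 29 replication genes. The CCAAT motif was in 20 of 27 mitosis genes, against 43.1%. The E2F motif was in 13 of 29 replication genes (44.8%) and 3 of 27 mitosis genes, against 10.1%. Matches of CHR and CCAAT overlapped in 12 of 11307 windows, those of CCAAT and E2F in 4, and those of CHR and E2F in 0.

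Lipid synthesis genes were called lower more often than the 18% of all genes, but most were not called. Of 24 cholesterol synthesis genes 0 rose, 7 fell (29.2%) and 17 were not called (median -0.76), and of 17 fatty acid synthesis genes 1 rose, 8 fell (47.1%) and 8 were not called (median -0.99). With median-of-ratios scaling 5 cholesterol synthesis genes are called lower (median -0.38), and fatty acid synthesis genes have 3 higher and 7 lower (median -0.67). Dhcr7, which acts at the end of the sterol pathway, went from 14.3 to 2.91 FPKM (-1.97), and Sqle, which makes squalene epoxide, from 49.7 to 15.01 (-1.66). Fads2 and Fads1, desaturases of polyunsaturated fatty acids, fell from 15.4 to 1.29 FPKM (-2.84) and from 48.1 to 8.11 (-2.43), and Fasn, the fatty acid synthase, from 24.5 to 3.68 (-2.45). Acsl1, which activates fatty acids, went the other way, from 19.1 to 317 FPKM (3.99). A strict sterol regulatory element, TCACNCCAC on either strand, was in the window of 1 of 17 cholesterol synthesis genes and 1.40% of measured genes, while CCAAT was in 16 of the 17.

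Of 21 lipid uptake genes 5 rose (23.8%, against 8.9% of all genes) and 3 fell (14.3%, against 18%), with a median of 0.06. With median-of-ratios scaling 7 are called higher and 1 lower. Lipg, a lipase that frees fatty acids from high density lipoprotein, went from 0.65 to 96.96 FPKM (5.89), while lipoprotein lipase, Lpl, fell from 622 to 278 (-1.16), which is not called with scaled libraries. A list of targets of the sterol receptor LXR and of cholesterol efflux genes had 3 of 16 higher and 3 lower (median -0.07). That is 18.75% each way, against 8.9% and 18% of all genes. In it Abca1, which exports cholesterol, rose from 1.87 to 22.4 FPKM (3.03) and Abcg1 stood at 11.7 and 11.5 (-0.02). Lipa, the lysosomal cholesterol ester hydrolase, fell from 593 to 171 FPKM (-1.78).

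Most genes of energy metabolism were not called. Of 29 glycolysis and hypoxia genes 9 rose (31.0%, against 8.9% of all genes) and 0 fell (median 0.21), led by the glucose transporter gene Slc2a6 (18.1 to 234 FPKM, 3.63) and Pfkfb3, which makes the activator of phosphofructokinase (14.1 to 155, 3.37). Abundant enzymes such as Gapdh (-0.11), Pkm (-0.06) and Ldha (0.15) were not called. Of 24 genes of the TCA cycle list, Acod1 rose and 5 fell: Idh2 (-1.87), Suclg2 (-1.67), Fh1 (-1.57), Idh3a (-1.49) and Idh1 (-1.44). As deposited, this share of 20.8% is near the 18% of all genes. With median-of-ratios scaling 5 of the 24 are still called lower, while lower calls over all genes drop from 2020 to 1121. None of 35 oxidative phosphorylation genes was called, and their median of -0.39 becomes -0.00 with the scaled libraries. Lysosome genes were likewise near the centre, with 1 of 25 higher, 2 lower and a median of -0.36, which is 0.04 after scaling.

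**Figure D3:**
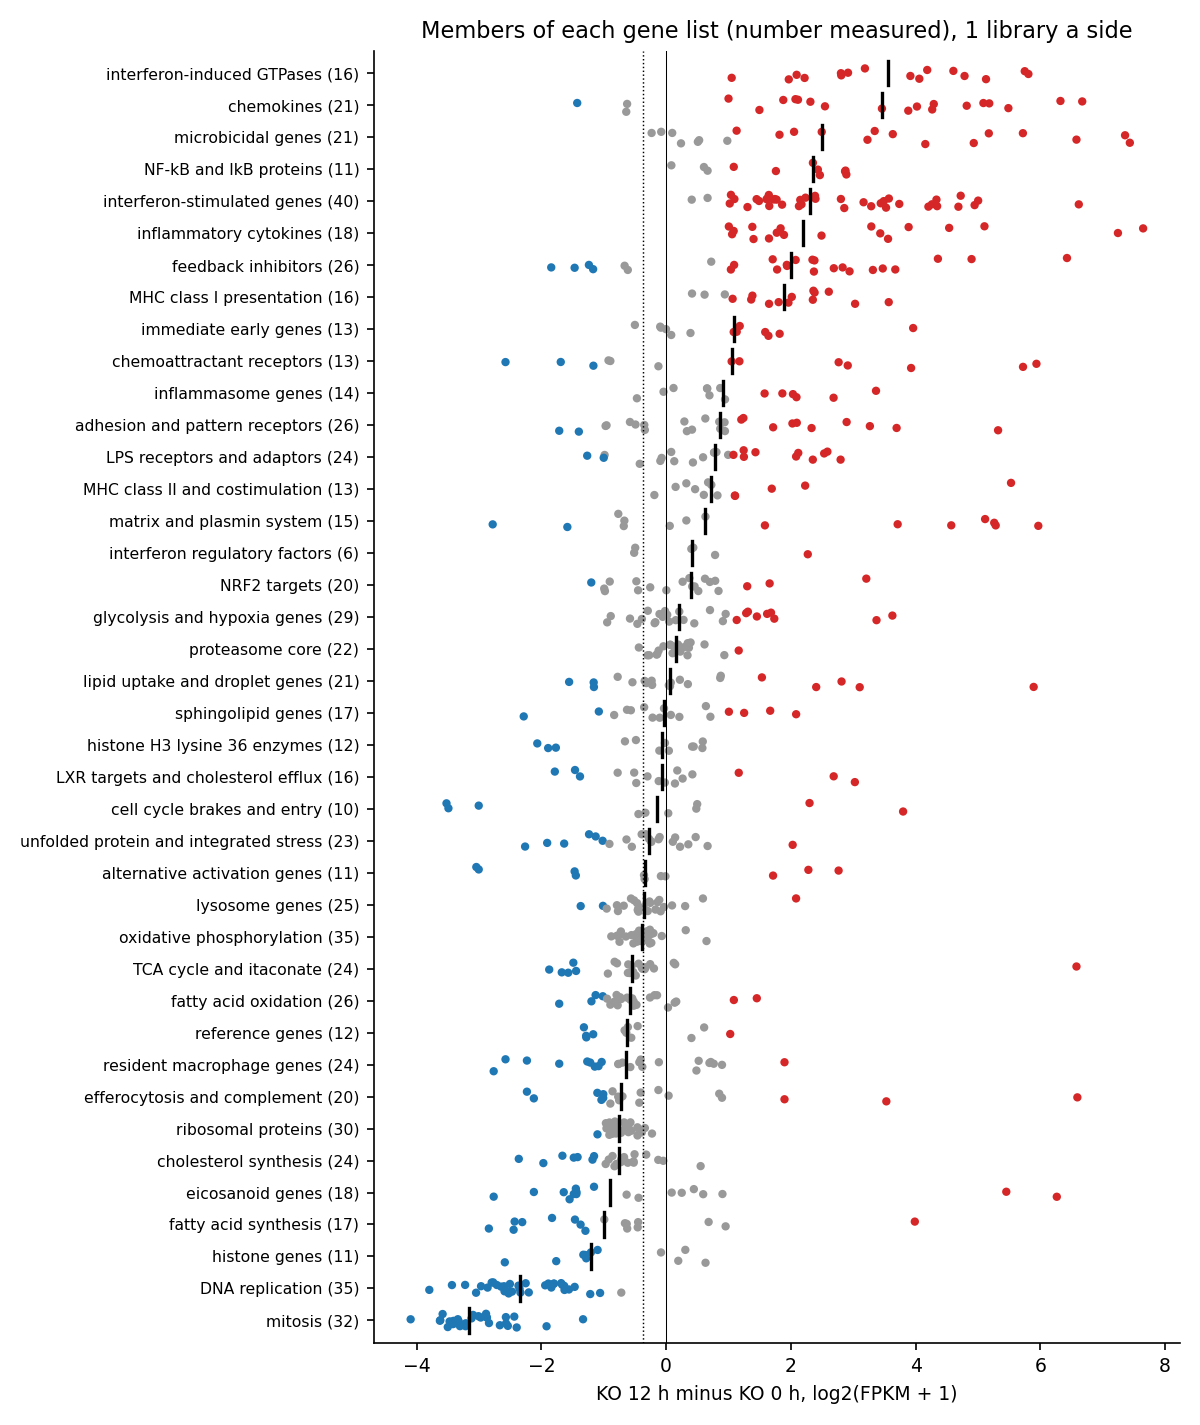
Difference between KO 12 h and KO 0 h on the log2(FPKM + 1) scale for every measured member of 40 gene lists, 1 point a gene, with red for called higher, blue for called lower and grey for neither. Black bars are list medians and the dotted line is the median of all measured genes (-0.38). GTPase and chemokine genes are at the top with medians of 3.55 and 3.46, and mitosis genes at the bottom with -3.17.

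The same response was measured in WT from libraries that the KO response does not use. In WT, 1113 of 11126 genes rose (10%) and 2012 fell (18.1%), and the median was -0.31. Higher calls were shared by 796 genes, which is 79.8% of the KO list and 71.5% of the WT list, and lower calls by 1320, which is 65.3% and 65.6%. Across 11427 genes the 2 sets of differences had a Pearson r of 0.89, which describes these 4 libraries, since genes are not independent replicates. Opposite calls were made for 18 genes, and the longest transcript length known among them was 110 nt. Transcript length went with the response in WT (Spearman rho of 0.33 over 7824 genes) and little in KO (0.06 over 7804), and the Pearson r with that trend removed was 0.90.

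The KO response exceeded the WT response by 1 or more for 189 of 11427 genes (1.65%) and fell short of it by as much for 363 (3.18%). Interferon-stimulated genes made up part of the second group: 39 of 40 had the smaller response in KO, 32 of them by 1 or more, with list medians of 2.31 in KO and 3.99 in WT. All 40 were higher in KO than in WT at 0 h, and 35 of 40 were higher in KO at 12 h. Irf7 shows the pattern, with 153 and 1073 FPKM in KO and 18.7 and 1054 in WT, responses of 2.80 and 5.75. Oasl2 went from 88.0 to 297 FPKM in KO (1.74) and from 8.54 to 231 in WT (4.60), and Siglec1, a sialic acid receptor, from 77.9 to 124 (0.66) and from 8.25 to 92.1 (3.33). In these genes the KO values began above those of WT and ended nearer to them. Ccl2 and Ccl7 also rose less in KO, by 1.88 against 4.57 and by 2.11 against 5.49, although both ended higher there, Ccl2 at 1041 FPKM against 300.2 and Ccl7 at 360.3 against 91.8.

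**Figure D4:**
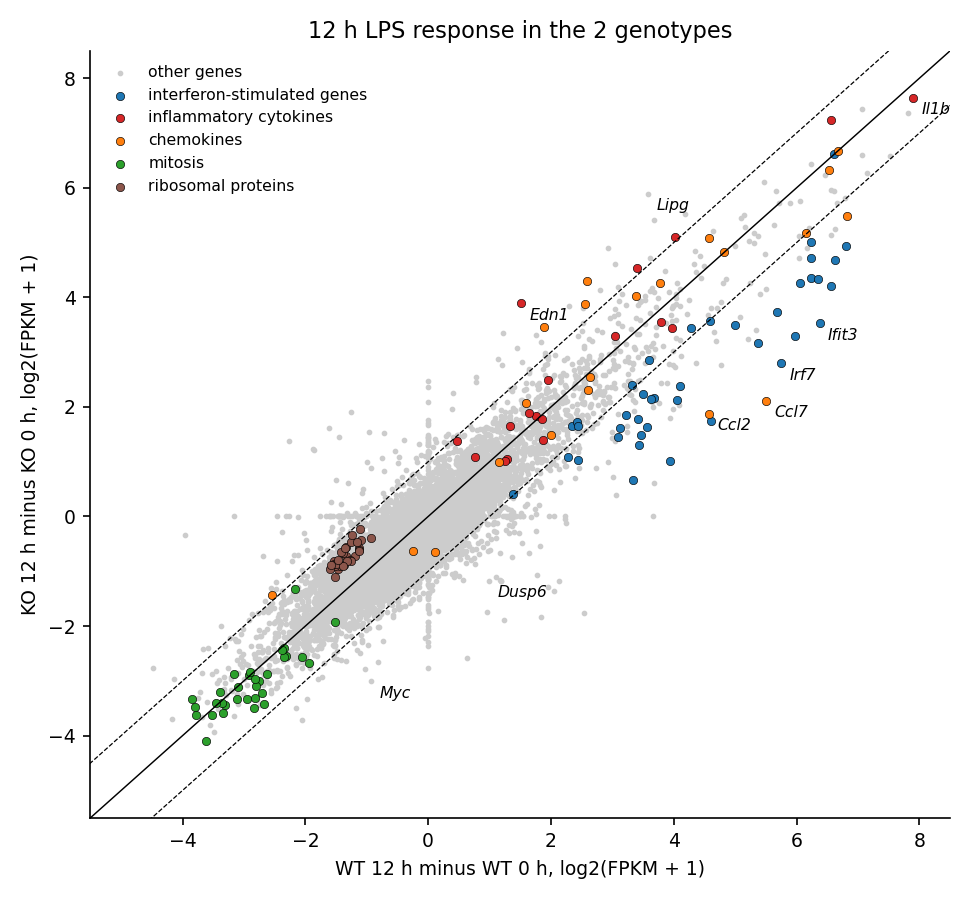
Difference between 12 h and 0 h in WT (x axis) and in KO (y axis), both on the log2(FPKM + 1) scale, 1 point a gene, with colours for 5 lists and labels for single genes. The solid line marks equal responses and the dashed lines a gap of 1. Interferon-stimulated genes lie mostly under the lower line (medians of 3.99 in WT and 2.31 in KO) and ribosomal protein genes above the solid line (-1.35 and -0.76).

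Responses that were larger in KO included Edn1 (3.89 against 1.51 in WT), Lipg (5.89 against 3.58) and Hamp, the gene of the iron hormone hepcidin (3.34 against 1.23). Each started under 1 FPKM in both genotypes and ended higher in KO: Edn1 at 16.46 FPKM against 2.17, Lipg at 96.96 against 11.1 and Hamp at 11.7 against 1.62. Hamp at 0 h rests on about 2 reads in KO. Tmem178 (2.88 against 1.14) and Insl6 (2.54 against 0.78) followed. Bcl2a1a, from 0 to 41.7 FPKM in KO, and H2-Q8 have near-identical copies and are uncertain, and Sap25 owes its place to a value of 14.6 FPKM in WT 0 h and 0 in WT 12 h. Rps27rt, the lowest by this measure, is listed at 0 in both KO libraries.

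The fall of mitosis genes was of like size in both genotypes, with medians of -3.17 in KO and -2.87 in WT. Of 17 fatty acid synthesis genes 16 had the lower difference in KO, 2 of them by 1 or more, with medians of -0.99 and -0.57. Their median gap between the responses was -0.38, against -0.08 over all genes. Fasn was at -2.45 against -1.16. Glycolysis and hypoxia genes had the smaller response in 26 of 29 cases, with medians of 0.21 and 0.54, and the difference was 1 or more for 5 of them, with 1 gene larger in KO by as much. The median difference between the responses was -0.45 for this list and -0.08 over all genes. Hif1a, the oxygen-regulated factor, rose from 20.3 to 50.9 FPKM in KO (1.28) and from 14.3 to 76.9 in WT (2.35). Arg1 went from 0.51 to 40.3 FPKM in WT (4.77), against the 2.76 of KO. The 30 ribosomal protein genes, which have short transcripts, had a median of -0.76 in KO with 1 called lower and of -1.35 in WT with 29 called lower. All 30 were lower in KO than in WT at 0 h and 27 of 30 at 12 h, and the part of the length trend in this was not tested.

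At 24 h the KO libraries show how long the members of the response lasted, and the 24 h difference shares the KO 0 h library with the 12 h one. All 32 mitosis genes were lower at 24 h than at 12 h, with a median against 0 h of -4.14, and Plk1 stood at 0.48 FPKM. The 16 GTPase genes were all lower at 24 h than at 12 h, with Gbp2 at 165 FPKM after 668. Lipg came down from 96.96 to 5.24 FPKM, Mmp13 from 717 to 118, and Cd40 from 199.9 to 31.3. Other genes went on: Saa3 reached 37989 FPKM after 10221, Cxcl3 reached 759.6 after 273, Fpr1 259 after 102 and Ccl7 832 after 360.3. Il1b was about level, at 1259 and 1164 FPKM. Cholesterol synthesis genes were lower at 24 h than at 12 h in 20 of 24 cases, with a median against 0 h of -1.63 after -0.76. Oxidative phosphorylation genes went the other way, with 30 of 35 higher at 24 h than at 12 h and 5 lower. These 24 h counts were not scaled, and no share over all genes was taken beside them. The 10 most abundant genes held 22.9% of the FPKM in KO 24 h and 12.75% in KO 12 h, which lowers the rest at 24 h.

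**Figure D5:**
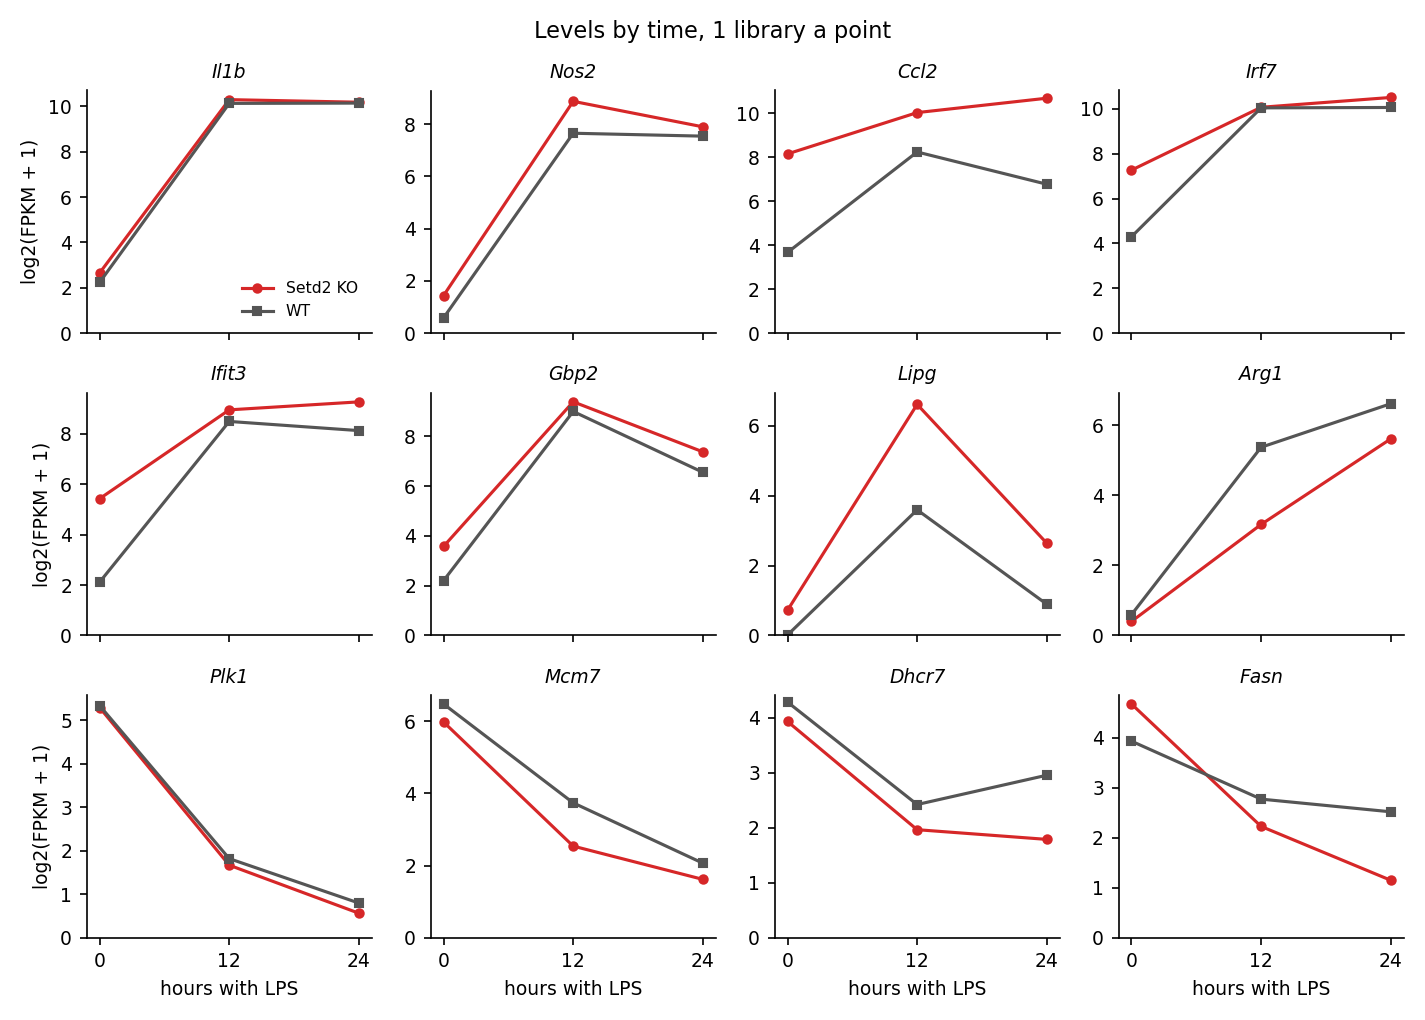
Levels of 12 genes as log2(FPKM + 1) at 0, 12 and 24 h with LPS, red circles for KO and grey squares for WT, 1 library a point, with no error bars because there are no replicates. In KO, Il1b is level after 12 h (1259 and 1164 FPKM), Lipg peaks at 12 h (96.96 FPKM), and Plk1 declines from 38.1 through 2.18 to 0.48.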

How the data were processed

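RNA sequencing of mouse macrophages gave 1 library for each of 2 genotypes at 3 times, 6 in all; 2 of them make up the response described. Values are FPKM as deposited by the authors, per the file headers. Per the submitters' processing notes, Bowtie2, RSEM and GRCm38 were used; versions and settings are not given in the sources used here. FPKM is relative to the library total, so abundant genes that rise can lower the rest. Counts were not used here, and depth was estimated from weak genes, whose values move in jumps of a whole read (read length of 50 nt assumed; 76.6% to 79.3% of the values used fell within 0.2 of a whole read).

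The table had 17905 rows, of which 1 names no gene and was left out. Symbols turned into dates (25) were restored from gene IDs. The KO 0 h cells of Cd36 and Cers5 are not numbers and were treated as missing. Differences of log2(FPKM + 1) were taken among genes reaching 1 FPKM in a library compared and called at a size of 1, with no test. Python 3.11.15, pandas 2.3.3, numpy 2.4.6, scipy 1.17.1 and statsmodels 0.14.6 were used, and the code was tested on simulated data.

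Named genes were the 15 highest and 15 lowest among called genes reaching 5 FPKM, the 10 highest and 10 lowest differences of the KO and WT responses, called members of 40 function lists, up to 4 members with the largest differences each way and the most abundant ones, and founding members such as Tlr4. Predicted genes, clones, pseudogenes and microRNA genes were counted, not named. Members and lists were chosen with earlier results of these data known. Motifs were searched on both strands of RefSeq promoters (GRCm38.p6); a gene counted if any of its windows held the motif. Transcript lengths came from GENCODE M21, for 99.0% of measured genes. Alternatives were pseudocounts of 0.1 and 5, no minimum or a minimum of 5 FPKM, median-of-ratios and trimmed-mean scaling, removal of a lowess trend (span 0.3) over length, and 1.5-fold and 3-fold rules. Some genes are not reported here.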

Additional observations from a re-analysis of the deposited data

Results flagged for a closer look

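Among named genes called in the KO response, 3 described here had a difference of the opposite sign in WT, which is what brought them here. None of the 3 was called in WT, where Stab1 and Cd83 were near 0, and with 1 library a group the difference between genotypes was not tested. Dusp6, the ERK phosphatase, stood at 18.8 and 7.80 FPKM in KO and at 7.22 and 15.4 in WT, responses of -1.17 and 0.99 that differ by -2.16. The scavenger receptor Stab1 stood at 111 and 53.5 FPKM in KO and at 92.9 and 94.1 in WT (-1.04 and 0.02), a difference of -1.06. Cd83, a surface protein of activated antigen-presenting cells, stood at 6.82 and 15.8 FPKM in KO and at 9.32 and 9.01 in WT (1.10 and -0.04), a difference of 1.15. Scaling the libraries leaves Dusp6 (-0.80) and Stab1 (-0.64) short of a call in KO, and with a pseudocount of 5 all 3 are short of it (Dusp6 -0.90, Stab1 -0.99 and Cd83 0.81).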

How the results depend on the processing

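No paired analysis was possible because each group holds 1 library, and for the same reason no replicate could be left out. Counts are given as higher and lower. With a pseudocount of 0.1 the differences between the KO and WT responses had 354 and 690 calls in place of 189 and 363. A pseudocount of 5 gave 641 and 883 for KO, 708 and 1042 for WT, and 43 and 113 for the difference. A minimum of 5 FPKM left 94 higher calls of the difference. Lower calls fell under median-of-ratios scaling to 1121 for KO and 1272 for WT, and under trimmed-mean scaling to 1118 and 1274. Higher calls were then 1389 for KO with both scalings, and 1478 and 1486 for WT. WT calls were 53.7% and 53.8% higher in place of 35.6%, and those of the difference 42.7% and 42.0% in place of 34.2%. A 1.5-fold rule gave 1509 and 4166 for KO, 1773 and 3923 for WT, and 818 and 1398 for the difference, and a 3-fold rule 576 and 710, 653 and 719, and 49 and 97. Of 425 named genes, 81 lost their call with a pseudocount of 5, 45 with each scaling (differences of -1.0 to -1.40) and 7 without the length trend. A pseudocount or a minimum cannot reverse the sign of a difference, and a shift of 0.40 cannot reverse a called one. Removal of the length trend, which could, reversed 0. Of the 40 list medians, 10 moved by over 1.5-fold with a pseudocount of 5, all toward 0, among them GTPases (2.62), NF-kB and IkB proteins (1.62), microbicidal genes (1.79), feedback inhibitors (1.39), mitosis (-2.12) and DNA replication (-1.59). With a pseudocount of 0.1, 3 moved as far, all away from 0, among them GTPases (4.24). The cytokine median was 3.36 with a minimum of 5 FPKM. Scaling shifts the differences by about 0.40, which is less than 1.5-fold, so it could not move a list median as far. With median-of-ratios scaling some medians near 0 changed sign, among them lysosome genes (-0.36 to 0.04) and the stress list (-0.27 to 0.13). Precision is limited by single libraries throughout, and at low levels by few reads.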

Other observations

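Further lists describe parts of the KO response not yet covered. Chemoattractant receptor genes rose in 7 of 13 cases and fell in 3, with a median of 1.05: Fpr2 went from 0.92 to 100.3 FPKM (5.72), Ccrl2 from 5.09 to 91.6 (3.93) and Ccr7, the receptor that guides cells to lymph nodes, from 4.34 to 39.2 (2.91), while Cxcr4 fell from 48.4 to 14.3 (-1.69). In the matrix and plasmin list 7 of 15 rose and 2 fell, with Mmp14, a membrane-bound metalloprotease, at 10.1 and 431 FPKM (5.28), its inhibitor Timp1 at 5.36 and 82.3 (3.71), and the plasminogen activator Plau at 313 and 44.8 (-2.78). The plasminogen activator inhibitor gene Serpinb2 went from 0.55 to 58.4 FPKM (5.26).

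NRF2 targets rose in 3 of 20 cases and fell in 1 (median 0.39), beside 8.9% and 18% of all genes. With median-of-ratios scaling 7 of them are called higher and 0 lower. The cystine transporter gene Slc7a11 stood at 3.24 and 38.2 FPKM (3.21) and Hmox1, which degrades heme, at 370.2 and 1171 (1.66). In the stress list 1 of 23 rose and 6 fell (26.1%, against 18% of all genes). With median-of-ratios scaling 2 are called higher and 3 lower, and the list median of -0.27 becomes 0.13. The genes that fell included Shmt2 (50.9 to 9.83 FPKM, -2.26) and Phgdh (60.4 to 15.4, -1.91) of serine and one-carbon metabolism and Asns (-1.63). Of 12 enzymes that write or erase methylation of lysine 36 of histone H3, 3 fell (25.0%, against 18% of all genes) and 0 rose: Whsc1 from 32.0 to 6.88 FPKM (-2.07), Kdm2b from 15.51 to 3.45 (-1.89) and Smyd2 from 28.0 to 7.52 (-1.77). All 3 were called lower in WT too, at -1.01, -1.45 and -1.76. Pparg, a lipid-sensing receptor of the alternative activation list, fell from 18.4 to 1.35 FPKM (-3.04), and Il4ra, the interleukin 4 receptor, rose from 22.5 to 113 (2.28).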
